A study of Mus musculus with 10 samples.

Results

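The 6 genes followed here stand around the start of steroid synthesis: Cyp11a1, Star, Tspo, Fdx1, Fdxr and the glucocorticoid receptor gene Nr3c1. They were chosen by name, and Cyp11a1 was chosen for its lower value in knockout cells and its known expression in Th2 cells, so its knockout difference is described here and not tested. Of the 6 genes, 5 had probe sets naming them alone in both tables, out of 19054 such genes. Fdxr had none, so its expression was not analysed here. The 5 genes were read by 40 exon-level and 5 gene-level probe sets, and all 5 lay above the filter on dim genes.

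CD3+ T cells were taken from spleen in 12-week-old Balb/c males and activated for 4 days with plate-coated antibody to CD3 and soluble antibody to CD28. The mice were KLF13 KO (5 samples, KO1 to KO5) or WT (5 samples, WT1 to WT5), and every sample had been activated, so no resting T cells enter the comparisons. KLF13 is a zinc-finger transcription factor. How the gene was disrupted is not stated in the labels. The labels name separate mice, so p-values measure the spread between these samples. CD3 marks both CD4 and CD8 T cells, and in such a bulk population fewer cells of a type and less RNA per cell cannot be told apart.

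The arrays came as an exon-level table (replicates 1 to 3 of each genotype) and a gene-level table (replicates 4 and 5). Column medians placed replicate 1 on a scale of its own, with 5.23 in KO1 and 5.21 in WT1, while the medians were 6.25 to 6.43 in replicates 2 and 3 and 4.18 to 4.30 at the gene level. Differences are therefore KO minus WT of log2 signals within 3 sets of arrays (replicate 1, replicates 2 and 3, and replicates 4 and 5), and levels are not compared between sets or between genes. In replicates 2 and 3 the 99th percentile of signals was 11.4 and 11.6 in KO arrays, against 12.2 and 12.3 in WT arrays. The 8 T cell markers found in both tables averaged 9.76 to 9.88 in these KO arrays, against 10.7 in WT2 and WT3. At the gene level that average was 10.1 to 10.2 in KO arrays and 10.0 to 10.2 in WT arrays. Klf13 fell to 0.549 of the WT level (log2 difference -0.86 ± 0.12, SE, 5 arrays against 5, limma, adjusted p = 0.0126). Without KO4, KO5, WT2, WT3 or WT4 that adjusted p was between 0.0507 and 0.0689, and with only the 2 tables as block it was 1.00 at the same difference. The fit with 2 tables as block gave the genes named here the same SE (0.35). Its p-values thus follow the size of the difference and not each gene's own spread. Whether the probe sets of Klf13 lie in the disrupted stretch is not stated in the labels.

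Steroid hormones are made from cholesterol. STAR carries cholesterol to the inner mitochondrial membrane, where CYP11A1, the side-chain cleavage enzyme, turns it into pregnenolone, the parent of glucocorticoids and sex steroids. CYP11A1 draws its electrons from NADPH through the ferredoxin reductase FDXR and the ferredoxin FDX1. TSPO is an outer mitochondrial membrane protein long linked to cholesterol import, although how far it is needed is disputed. The pathway is best known from the adrenal gland, gonads and placenta. In mice, Th2 cells have also been described to express Cyp11a1 and make pregnenolone, and most lymphocytes respond to glucocorticoids through NR3C1.

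Cyp11a1, the first enzyme of the pathway, was lower in each KO array than in the WT arrays of its set. The log2 signal was 6.98 in KO1, against 7.71 in WT1. In the second set it was 6.35 in KO2 and 5.86 in KO3, against 7.12 in WT2 and 7.05 in WT3. At the gene level it was 6.49 in KO4 and 6.23 in KO5, against 8.43 in WT4 and 7.67 in WT5. The groups did not overlap in any of the 3 sets, and WT4 stood highest at the gene level, 0.77 above WT5.

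The Cyp11a1 differences were -0.73 in replicate 1, -0.98 in replicates 2 and 3 and -1.69 in replicates 4 and 5. These correspond to 0.602, 0.508 and 0.310 of the WT signal. Over both tables the level was 0.431 of WT (-1.21 ± 0.20, SE, 5 arrays against 5, with no test). Every KO array lay below every WT array of its set for 10.8% of the 12489 genes tested. Because Cyp11a1 was chosen for its lower value, nothing is read from that share. Leaving out single arrays gave -1.02 (without WT4) to -1.33 (without KO1 or WT1). In replicates 2 and 3 the tenth of genes of its brightness had a median of -0.21. The part of brightness in the Cyp11a1 difference was not tested.

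**Figure D1:**
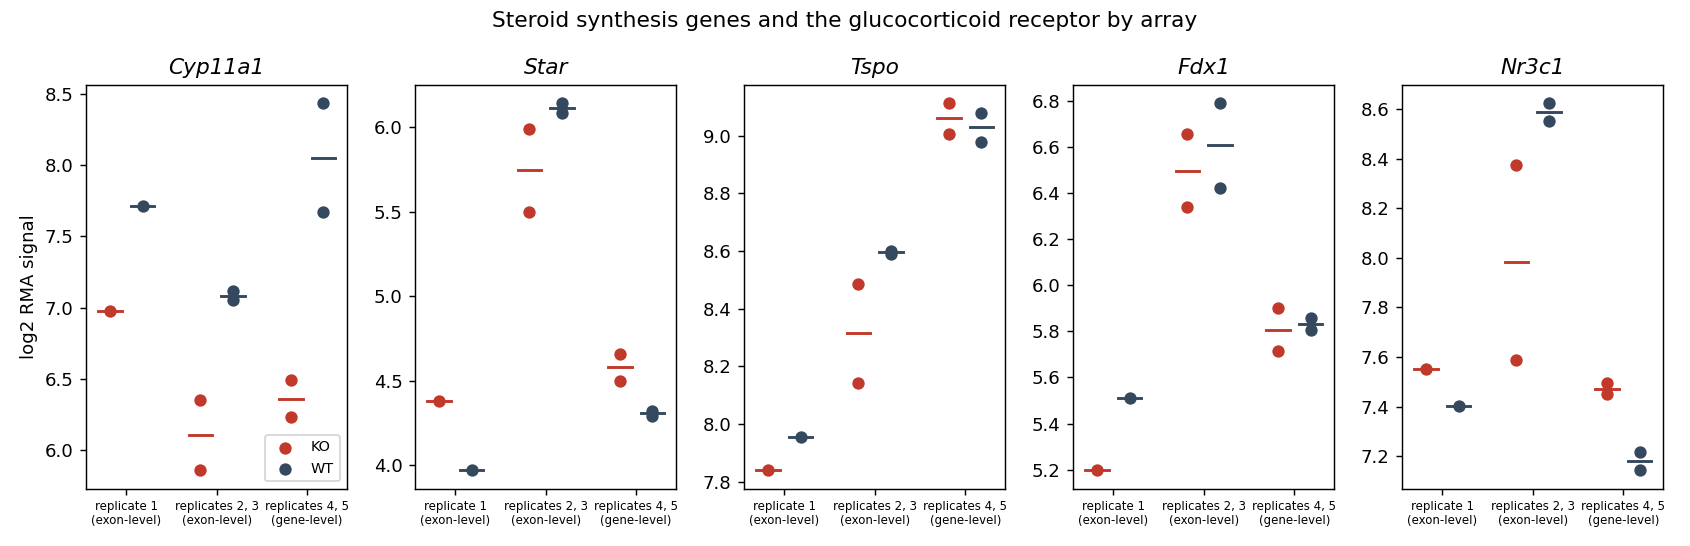
Log2 RMA signal of the 5 measured genes (y axis, a separate range in each panel) in each array, with KO left of WT within each set of arrays on the x axis; points are arrays and bars are means. Cyp11a1 lies lower in all KO arrays of every set (for example 6.23 and 6.49 in KO arrays against 7.67 and 8.43 in WT arrays at the gene level), while for Star, Tspo and Nr3c1 the order of the group means varies between sets, and for Fdx1 the KO mean is the lower one in each set but the arrays overlap in replicates 2 and 3 and at the gene level.

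Exon-level probe sets read separate stretches of a transcript, so they show whether the lower signal is shared along Cyp11a1. All 8 of its probe sets were lower in each KO array than in the WT arrays of the same set, a pattern seen in 16.7% of the 212097 exon-level probe sets that name 1 gene. These 8 make up the exon-level value of Cyp11a1, which was chosen for its lower value, so nothing is read from that share either. Probe set 10585798 read 8.52 in KO1 against 9.46 in WT1, and 7.58 and 6.70 in KO2 and KO3 against 8.60 and 8.69 in WT2 and WT3. The gap was widest in replicates 2 and 3 for probe set 10585798, at -1.51, and for 10585796, at -1.49.

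Probe set 10585799 hardly separated the genotypes. It read 6.94 in KO1 against 7.05 in WT1, and 5.87 and 6.17 in KO2 and KO3 against 6.28 and 6.18 in WT2 and WT3. Its differences of -0.11 and -0.21 were the smallest of the 8, whose medians were -0.88 in replicate 1 and -1.14 in replicates 2 and 3. KO3 gave the lowest value at 5 of 8 probe sets and KO2 at the other 3 within replicates 2 and 3. Where each probe set lies along the transcript was not analysed here.

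**Figure D2:**
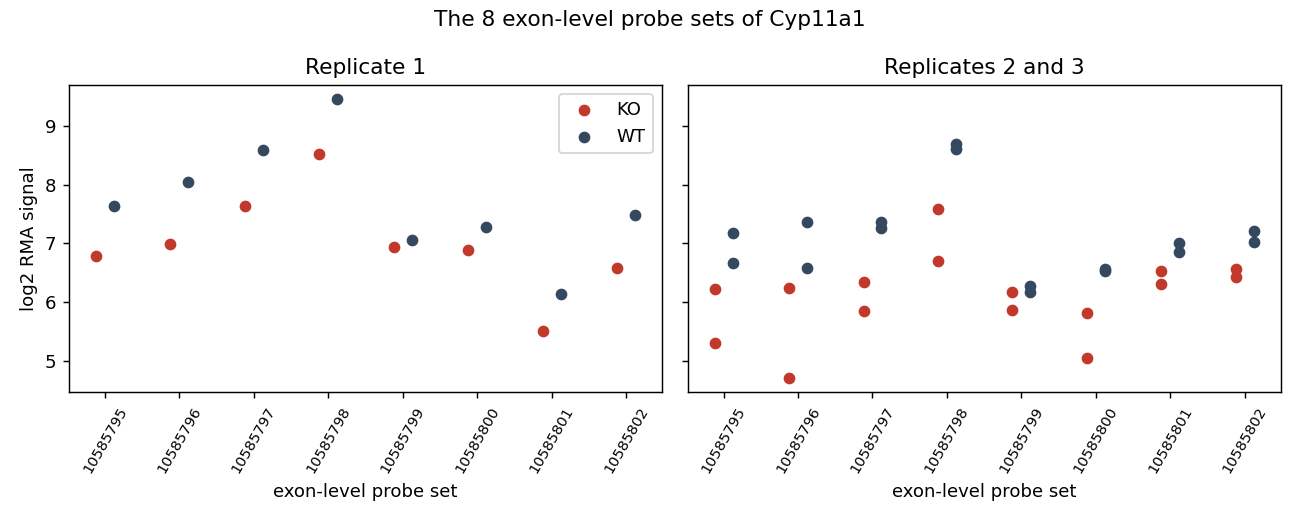
Log2 RMA signal (y axis) at the 8 exon-level probe sets of Cyp11a1 (x axis) in replicate 1 (left) and in replicates 2 and 3 (right), with KO left of WT at each probe set. KO points lie below WT points at all 8, most narrowly at probe set 10585799, where KO3 is at 6.17 and WT3 at 6.18.

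Cyp11a1 lies on chromosome 9 (chr9:57998024-58027031, GRCm38.p6), and RefSeq lists 2 transcription starts for it. The 250 bases before each start are shown, because factors of the KLF family are known to bind CACCC and GC-rich boxes, together with those of Fdx1, a partner on the same chromosome whose transcript did not pass the test. Capitals mark 4 motifs. They are CACCC and the GC box, which is GGGCGG. For NR5A1, a regulator of adrenal and gonadal steroid enzymes, the motif is AAGGTCA, and for GATA factors it is TGATAA. Both strands were searched, so that a match on the other strand appears as its reverse complement. Sequences are from RefSeq, GRCm38.p6, written along the gene.
Cyp11a1 first start, chr9:57997774-57998023, plus strand: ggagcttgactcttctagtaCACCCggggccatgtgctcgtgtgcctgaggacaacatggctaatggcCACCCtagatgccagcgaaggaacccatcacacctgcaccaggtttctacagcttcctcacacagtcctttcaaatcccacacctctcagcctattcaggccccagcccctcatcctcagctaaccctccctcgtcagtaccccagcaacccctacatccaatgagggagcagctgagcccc
Cyp11a1 second start, chr9:58014702-58014951, plus strand: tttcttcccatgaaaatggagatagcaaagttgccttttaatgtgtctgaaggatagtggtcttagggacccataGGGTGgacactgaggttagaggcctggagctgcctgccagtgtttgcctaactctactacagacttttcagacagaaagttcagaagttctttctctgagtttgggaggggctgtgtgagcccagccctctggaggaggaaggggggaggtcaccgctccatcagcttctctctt
Fdx1, chr9:51963603-51963852, minus strand: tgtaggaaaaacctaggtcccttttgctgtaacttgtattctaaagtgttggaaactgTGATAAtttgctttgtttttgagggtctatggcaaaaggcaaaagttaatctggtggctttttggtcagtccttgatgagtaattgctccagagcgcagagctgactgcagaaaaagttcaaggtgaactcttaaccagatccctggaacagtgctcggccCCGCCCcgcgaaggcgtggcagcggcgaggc
The Cyp11a1 windows held 2 and 1 copies of CACCC, a motif found in 52.0% of the 32851 windows of that length, and no copy of the other 3. The Fdx1 window held 1 GGGCGG (in 32.7% of windows) and 1 TGATAA (7.94%), and AAGGTCA was in 4.08% of all windows. The window of Fdxr, which is not printed, held 3 GGGCGG and 1 TGATAA. No motif overlapped another in these windows. A match here describes letters and not a bound site.

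Star, which delivers cholesterol to the inner membrane, did not pass the test, and its direction differed between sets. Its log2 signal was 4.38 in KO1 against 3.97 in WT1, and 4.50 and 4.66 in KO4 and KO5 against 4.32 and 4.29 in WT4 and WT5. In the second set the order was the other way, with 5.99 and 5.50 in KO2 and KO3 against 6.08 and 6.14 in WT2 and WT3. The groups did not overlap in any set, but the KO arrays were the higher ones in replicates 1, 4 and 5 and the lower ones in replicates 2 and 3.

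Over both tables Star differed by 0.04 ± 0.16 (SE, 5 arrays against 5, limma, adjusted p = 0.875), with a 95% interval of 0.812 to 1.31 of the WT level. The exact permutation test within sets gave p = 0.778 (2-sided, smallest possible 0.0278). With the median of exon-level probe sets, or without KO1, WT1 or KO5, the difference lay between -0.02 and -0.06. The 10 Star probe sets ranged in difference from -0.26 to 1.01 in replicate 1 and from -0.82 to 0.67 in replicates 2 and 3. Of these, 8 showed overlap or opposite order between the sets. In every KO array 1 was lower than in the WT arrays of the same set and 1 was higher, against 16.7% and 6.85% of all exon-level probe sets. Star lay at percentile 45.3 of exon-level and 46.7 of gene-level brightness. Its difference of -0.37 in replicates 2 and 3 stands beside a median of 0.14 for the tenth of genes of that brightness.

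Tspo, the outer-membrane protein, did not pass either. Its log2 signal was 7.84 in KO1 against 7.95 in WT1. In the second set it was 8.14 and 8.49 in KO2 and KO3, against 8.60 and 8.59 in WT2 and WT3. At the gene level it was 9.11 and 9.01 in KO4 and KO5, against 8.98 and 9.08 in WT4 and WT5, where the groups overlapped. The difference over both tables was -0.12 ± 0.12 (SE, 5 arrays against 5, limma, adjusted p = 0.577), with a 95% interval of 0.768 to 1.10 of WT and an exact permutation p of 0.222. Its difference of -0.28 in replicates 2 and 3 stands beside a median of -0.52 for the tenth of genes of that brightness in the same arrays, and the part of brightness in it was not tested. The exon-level probe sets of Tspo differed in direction. Of the 5, 3 were lower in every KO array than in the WT arrays of the same set and 1 was higher, against 16.7% and 6.85% of all probe sets. In replicates 2 and 3 their differences ran from -1.12 to 1.34 (probe set 10425809), with a median of -0.52.

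Fdx1, the electron carrier that serves CYP11A1, overlapped between genotypes in both sets with more than 1 array a group. Its log2 signal was 5.20 in KO1 against 5.51 in WT1. In the second set it was 6.34 and 6.66 in KO2 and KO3, against 6.79 and 6.42 in WT2 and WT3. At the gene level it was 5.71 and 5.90 in KO4 and KO5 against 5.81 and 5.86 in WT4 and WT5. The 2 gene-level KO arrays thus lay on either side of the WT arrays. The difference was -0.12 ± 0.12 (SE, 5 arrays against 5, limma, adjusted p = 0.606), with a 95% interval of 0.764 to 1.11 of WT and an exact permutation p of 0.306. Of its 6 probe sets, 0 separated the genotypes in all exon-level arrays, where 16.7% of all probe sets were lower in KO and 6.85% higher. With 6 probe sets, nothing is read from that count. Fdx1 lies at chr9:51943023-51963602, on the chromosome of Cyp11a1.

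Nr3c1, which encodes the receptor that glucocorticoids bind in T cells, also had its groups in a different order between sets, as Star did. The limma test of whether the difference itself varied between the sets called 0% of genes (760 were under 0.05 before adjustment) and gave both Star and Nr3c1 an adjusted p of 0.803. Its log2 signal was 7.55 in KO1 against 7.40 in WT1, and 7.45 and 7.49 in KO4 and KO5 against 7.22 and 7.14 in WT4 and WT5. In the second set it was 8.38 and 7.59 in KO2 and KO3, against 8.55 and 8.62 in WT2 and WT3. KO arrays were the higher ones in replicates 1, 4 and 5 and the lower ones in replicates 2 and 3, where KO3 lay 0.79 below KO2.

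Over both tables Nr3c1 differed by -0.10 ± 0.19 (SE, 5 arrays against 5, limma, adjusted p = 0.777), with a 95% interval of 0.701 to 1.25 of WT and an exact permutation p of 0.861. Without KO3 the difference was 0.10 (adjusted p = 0.626), and with quantile normalization within each table it was 0.00048. In the gene-level table alone it was 0.29 ± 0.12 (SE, 2 arrays against 2, adjusted p = 0.281). The tenth of genes of its brightness had a median difference of -0.52 in replicates 2 and 3 and of -0.04 at the gene level. The part of brightness in the value of -0.61 in replicates 2 and 3 was not tested. Among its 11 probe sets, 4 were lower in every KO array of the exon-level table than in the WT arrays of the same set and 1 was higher, against 16.7% and 6.85% of all probe sets.

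Of the 4 members tested, 0 thus passed in the comparison over both tables, where 73 of 12489 genes did (0.585%). In the gene-level table alone 0 of the 4 passed, against 2.71% of genes (1.99% lower and 0.721% higher in KO), and in the exon-level table alone 0 of the 4, against 0%, with 1019 genes there at an unadjusted p under 0.05. The lower ends of their 95% intervals lay between 0.701 (Nr3c1) and 0.812 (Star) of the WT level, and the upper ends between 1.10 (Tspo) and 1.31 (Star).

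The other genes of the pathway were counted from lists chosen with earlier results of these data known. The enzymes that act after CYP11A1 were mostly dim or without a probe set of their own: 9 of 21 could be tested, and 0 passed. Among the dim ones were Cyp17a1, needed for cortisol-type precursors and androgens, Cyp21a1 and Cyp11b1 of the later glucocorticoid steps, and Hsd3b1, Hsd3b2 and Hsd3b6, whose enzyme family turns pregnenolone into progesterone. The smallest p belonged to Sult2b1, a sulfotransferase of cholesterol and pregnenolone. It read 4.35 in KO1 against 4.04 in WT1. Replicates 2 and 3 gave 5.17 and 5.58 in KO2 and KO3 against 4.70 and 4.64 in WT2 and WT3. At the gene level it read 4.31 and 4.44 in KO4 and KO5 against 3.76 and 3.67 in WT4 and WT5. All KO arrays were the higher ones in each set, and every KO array lay above every WT array of its set for 1.63% of genes. Its gene-level signals were only 3.67 to 4.44, and with a 50th percentile filter on dim genes Sult2b1 was not tested. The difference was 0.61 ± 0.12 (SE, 5 arrays against 5, limma, adjusted p = 0.0555). It passed in the gene-level table alone (0.66, adjusted p = 0.0295) and, over both tables, without KO3 (0.53, adjusted p = 0.00826). Akr1c18, named after its value was seen, had the largest difference of the list (-0.79 ± 0.33, SE, 5 arrays against 5, limma, adjusted p = 0.299). That difference was -1.97 in replicates 2 and 3, against 0.19 in replicate 1 and -0.10 at the gene level, where its signals were only 3.61 to 4.11.

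Cholesterol handling before the mitochondrial step showed no call. Of 19 genes 15 were tested and 0 passed, with 13 below 0 and a median difference of -0.21, beside -0.097 over all genes. Stard4, a cytosolic sterol carrier, had the smallest p (-0.49 ± 0.17, SE, 5 arrays against 5, limma, adjusted p = 0.257). In replicates 2 and 3 the list's median was -0.40, against -0.05 in replicate 1 and -0.11 in replicates 4 and 5. Over all genes tested the median was -0.22 in replicates 2 and 3, -0.018 in replicate 1 and -0.010 in replicates 4 and 5. A lower value in replicates 2 and 3 is thus not particular to this list.

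Electron partners and other mitochondrial P450 enzymes had 3 of 7 genes tested and 0 passed, with cytochrome b5 (Cyb5a) at -0.30 (adjusted p = 0.361). Regulators of steroidogenic genes had 7 of 11 tested and 0 passed. Prkar1a, the regulatory subunit of protein kinase A, was at -0.53 (adjusted p = 0.257), and Crem, a cyclic-AMP responsive factor named after its value was seen, fell in the gene-level table alone (-0.77, adjusted p = 0.0424). Nr5a1 was at 0.18 ± 0.14 (SE, 5 arrays against 5, limma, adjusted p = 0.516).

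On the receptor side, chaperones and coregulators of NR3C1 had 9 of 13 genes tested and 0 passed. Their median was -0.16, and Hsp90aa1, a chaperone that holds the receptor ready to bind hormone, was at -0.66 ± 0.18 (SE, 5 arrays against 5, limma, adjusted p = 0.168), with -1.27 in replicates 2 and 3. With quantile normalization within each table Hsp90aa1 was at -0.38 (limma, adjusted p = 0.307). Genes that glucocorticoids induce in many cells were all measured. Of these 16, 0 passed in either direction, 14 lay below 0 and the median was -0.30, against -0.097 over all genes, of which 63.5% lay below 0. Tsc22d3, the glucocorticoid-induced leucine zipper, was at 0.06 ± 0.14 (adjusted p = 0.818), and Fkbp5, a receptor co-chaperone that the hormone induces, was at -0.23 ± 0.15 (SE, 5 arrays against 5, limma, adjusted p = 0.440). Nfkbia, an inhibitor of NF-kappa-B, had the smallest p (-0.68, adjusted p = 0.189). The list's median was -0.11 in replicate 1, -0.36 in replicates 2 and 3 and -0.21 in replicates 4 and 5. Over all genes tested these medians were -0.018, -0.22 and -0.010.

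**Figure D3:**
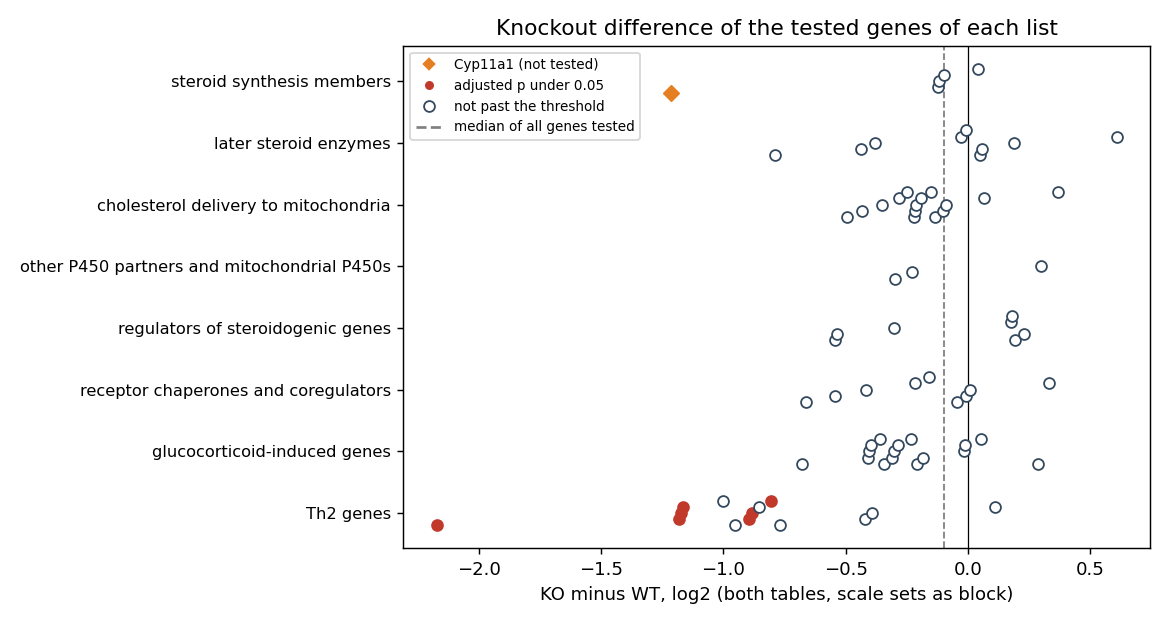
KO minus WT difference on the log2 scale (x axis, both tables, sets of arrays as block) of each tested gene in 8 lists (rows); filled circles passed an adjusted p under 0.05, open circles did not, the diamond is Cyp11a1, which was not tested, and the dashed line is the median of all genes at -0.097. The filled circles are the 7 Th2 genes, and the 5 steroid pathway lists and the glucocorticoid-induced list have none.

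Cyp11a1 has been described in Th2 cells, so genes of that lineage were set beside it. They too were chosen with earlier results of these data known, so the share that fell is a description and not an independent result. Of 16 Th2 genes 14 were tested and 7 fell, against 0.488% of all genes. Their median difference was -0.89, with -0.79, -1.09 and -0.83 in the 3 sets in order of replicate number. For all genes tested the medians in the same order were -0.018, -0.22 and -0.010. Il13, a type 2 cytokine, fell to 0.441 of WT (-1.18 ± 0.14, SE, 5 arrays against 5, limma, adjusted p = 0.00765). Gata3, the transcription factor that defines the lineage, fell to 0.443 (-1.17 ± 0.15, adjusted p = 0.00827), and both calls held when any single array was left out. With only the 2 tables as block, replicate 1 shares a level with replicates 2 and 3. The differences were then the same but the adjusted p was 0.432 for Il13, 0.446 for Gata3, 0.466 for Batf and 1.00 for Il4. These 4 genes had the same SE of 0.35 in that fit, so the spread of each gene did not enter. Batf (-1.17, adjusted p = 0.00827), a basic leucine zipper transcription factor, lost its call without KO4 or WT4 (adjusted p = 0.0505 and 0.0512). Il4 (-0.89, adjusted p = 0.0470) lost it without any one of KO1, KO2, KO4, KO5, WT1, WT2, WT3 or WT4 (0.0706 to 0.181). The count of 7 was 10 without KO3, 2 without KO4, 3 without KO5, WT2, WT3 or WT4, and 4 without WT5.

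By likeness over the 10 arrays, Cyp11a1 was closest to Il24, a cytokine that Th2 cells are known to make. The measure was Pearson's r of log2 signals centred on the mean of each set of arrays, over 12488 other genes. It includes the knockout difference itself, by which Cyp11a1 was chosen, and the points share arrays and their scale, so no test is attached. Il24 had r = 0.994, followed by Pold1, the catalytic subunit of DNA polymerase delta (0.972), Dhrs1, a short-chain dehydrogenase (0.970), Dglucy, D-glutamate cyclase (0.970), and Tgm2, a transglutaminase (0.969). After quantile normalization Il24 was again the closest, at 0.994, and Dhrs1 had rank 28.

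Il24 read 10.0 in KO1 against 10.98 in WT1. Replicates 2 and 3 gave 7.65 and 6.91 in KO2 and KO3 against 9.06 and 9.25 in WT2 and WT3. At the gene level it read 4.40 and 4.18 in KO4 and KO5 against 7.99 and 6.74 in WT4 and WT5. It fell to 0.222 of WT (-2.17 ± 0.32, SE, 5 arrays against 5, limma, adjusted p = 0.0173), a call lost without KO4, KO5, WT2, WT3 or WT5 (adjusted p = 0.0507 to 0.0852). With the 2 tables as block Il24 passed (adjusted p = 2.47e-06), but the SE of 0.35 shared by the named genes there leaves out its own spread. As with Cyp11a1, WT4 was above WT5, by 1.25 for Il24 and 0.77 for Cyp11a1, and KO2 was above KO3, by 0.75 and 0.49. KO4 was above KO5 by 0.22 and 0.26. WT2 and WT3 differed by -0.19 for Il24 and 0.06 for Cyp11a1.

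Il13 had r = 0.965 (rank 8), Klf13 0.874 (rank 189), Gata3 0.825 (rank 402) and Il4 0.757 (rank 788). The other steroid genes were far down this order. The r to Cyp11a1 was 0.186 for Tspo, 0.163 for Fdx1, 0.138 for Nr3c1 and -0.102 for Star, and after quantile normalization it was -0.189 for Tspo, -0.0663 for Nr3c1 and -0.140 for Star.

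**Figure D4:**
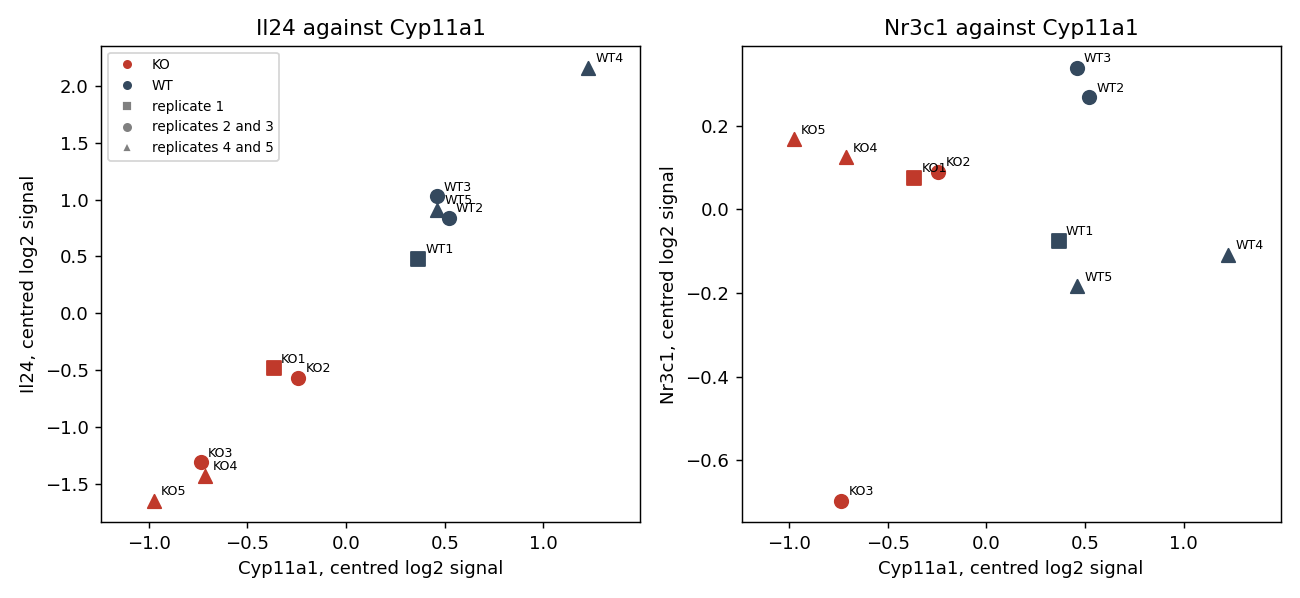
Log2 signals centred on the mean of each set of arrays, for Cyp11a1 (x axis) against Il24 (left, y axis) and Nr3c1 (right, y axis); red is KO, dark blue is WT, and marker shapes give the set. The 10 points of Il24 lie close to a line with WT4 at the top (r = 0.994), while those of Nr3c1 do not (r = 0.138), with KO3 lowest.

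Markers of other cells in which Cyp11a1 or its partners could be read were set beside these values. The 7 basophil and mast cell markers averaged 4.49 in KO1 against 4.19 in WT1, 5.32 to 5.45 in KO arrays against 5.03 to 5.08 in WT arrays of replicates 2 and 3, and 4.13 to 4.19 in KO arrays against 3.92 to 4.24 in WT arrays at the gene level. Mcpt8, Fcer1a, Ms4a2 and Prss34 of that list were too dim to be tested, and Kit was at 0.34 (limma, adjusted p = 0.333), or 0.75 (adjusted p = 0.0215) in the gene-level table alone. The other tested markers of that list were Hdc, at 0.25 (adjusted p = 0.359), and Cpa3, at 0.07 (adjusted p = 0.882), both named after their values were seen. Cpa3, a mast cell and basophil protease, read 6.01 in KO1 against 6.09 in WT1. Replicates 2 and 3 gave 6.495 and 5.78 in KO2 and KO3 against 5.74 and 5.67 in WT2 and WT3. The gene-level values were 4.69 and 4.50 in KO4 and KO5 against 5.61 and 4.01 in WT4 and WT5. As for Cyp11a1 and Il24, KO2 was above KO3 and WT4 above WT5, while both KO2 and KO3 were above WT2 and WT3 for Cpa3. Their part in the Cyp11a1 difference was not tested. The adrenal genes Cyp11b1 and Mc2r were too dim to be tested. Of the B cell markers 3 of 8 were tested, and of the myeloid markers 3 of 8. For erythroid markers it was 3 of 6, and for stromal and adrenal markers 4 of 8. Of 5 NK markers only 1 was tested (Eomes), and the others were too dim. Among these tested markers 0 passed, where 0.585% of all genes did, so nothing is read from that count. Blk was at 0.25, Csf1r at 0.20, Eomes at 0.02, Epor at 0.28 and Col1a1 at 0.19. Of the 8 T cell markers 0 passed, and Cd3g, a chain of the T cell receptor complex, had the smallest p (-0.89, adjusted p = 0.190), with -0.01 at the gene level.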

How the data were processed

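Values were deposited on the log2 scale, and RMA is named for them per the submitters' processing notes, with no version; the rest of the upstream processing was not given. The exon-level file covered 241576 probe sets and the gene-level file 35556. Only those assigned to 1 gene by GEO's platform annotation were kept (212097 and 21797), and RefSeq (GRCm38.p6) supplied newer symbols for 24495 and 23 of these. Exon-level probe sets were averaged per gene, and at the gene level the brightest was taken. Among the 19054 genes shared by the tables, 12489 reached the 30th percentile of mean log2 signal in both and were tested with limma 3.58.1 in R 4.3.3 (lmFit, eBayes, 2-sided, Benjamini-Hochberg, threshold 0.05). Scale sets, defined by column medians more than 0.5 apart within a table, were the block. The exact permutation test exchanged genotypes within scale sets (72 arrangements). The members, the lists and this block were chosen with earlier results of these data known. The fit was tested on simulated data with independent noise. It recovered 26% of 50 genes changed by 0.5 on the log2 scale and 82% of 50 changed by 1. Of 50 changed by 1.5 it recovered 96%, and of 50 changed by 2, 98%. Among the unchanged genes of the 12489 there were 17 false calls. These are to be weighed against the recovered genes and not against all genes. The simulated noise held no shift shared by the genes of an array. Named genes were the members, Klf13, up to 4 passing genes of each list by size of change or else that of smallest p, the 5 most like Cyp11a1 with standard symbols, and Il4, Il13, Gata3, Tsc22d3 and Fkbp5. The number of arrays limits the precision. Alternatives covered the block, the normalization, the probe set summary, the filter, the variance model, array weights and leaving out each array, and are given in the closing section.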

Additional observations from a re-analysis of the deposited data

Results flagged for a closer look

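Within a genotype, single arrays stood apart after centring on their set of arrays. WT4 was high for Cyp11a1, with a gap to the next WT array of 0.821 of the range of the 5 WT arrays, and for Il13 (0.716). KO3 was low among the KO arrays for Star (0.754) and Nr3c1 (0.893). WT5 stood apart for Eomes (0.799). Members and named genes were searched in both genotypes, with a gap over 0.71 of the range flagged. Chance flags about 1 in 20 groups of 5 independent values. Values centred on their set are not independent, so the rate here is not known.

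Star and Nr3c1 each had KO arrays above WT arrays in replicates 1, 4 and 5 and below them in replicates 2 and 3. The limma interaction fit over all genes gave unadjusted values of 0.0726 for Star and 0.0721 for Nr3c1, with an adjusted p of 0.803 for both.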

How the results depend on the processing

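Cyp11a1 was below 0 under all 23 alternatives, between -1.02 and -1.37. It was chosen for its lower value in these same arrays, so nothing is read from that count. The 4 tested members passed under 0 of 91 fits. Their sign changed where values lay near 0: Star was -0.063 with the median of exon-level probe sets, alone or with quantile normalization, -0.048 when both replicate 1 arrays were set aside, and between -0.048 and 0.18 over single arrays left out. Nr3c1 was 0.00048 with quantile normalization, 0.15 with array weights, 0.25 without replicates 2 and 3, and -0.17 to 0.10 over single arrays left out. Tspo was 0.024 with the median of probe sets and quantile normalization. Eomes ranged from -0.11 to 0.15 and Tsc22d3 from -0.046 to 0.12 over single arrays left out.

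The counts of genes lower and higher in KO (61 and 12) were 4 and 0 with 2 tables as block, 24 and 7 with the median of probe sets, 359 and 145 with array weights, 166 and 88 without replicates 2 and 3, and 27 and 1 without replicate 1; the last 2 settings were chosen after seeing the data. The lower count was 37 with trend and robust and 26 with the median of probe sets and quantile normalization. Over single arrays left out, lower counts ran from 10 to 259 and higher counts from 1 to 103. The Th2 count of 7 was 1 with 2 tables as block, 4 with the median of probe sets, 3 with quantile normalization added, 11 with array weights and 2 to 10 over single arrays left out. Of the glucocorticoid-induced genes 1 passed with array weights (Ddit4). Of the 5 steroid pathway lists 1 gene passed with trend and robust (Sult2b1), 3 with array weights (Nrip1, Stard4, Sult2b1), 2 without replicates 2 and 3, and 0 to 2 over single arrays left out. With 2 tables as block the named genes shared 1 SE, so calls there follow the size of the difference. The cause of the other shifts was not tested.

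Whether replicate numbers pair the samples could not be decided from the arrays. Across genes, the deviations of same-numbered arrays correlated at -0.424 in replicates 2 and 3 and -0.241 in replicates 4 and 5. Each value only sets the difference between the 2 KO arrays of a set against that between its 2 WT arrays. That is too few arrays to show or exclude pairing. With the replicate block 19 genes were lower and 4 higher, and 4 Th2 genes fell. Other named genes kept direction and call in 502 of 569 fits.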
